A study of Mus musculus with 30 samples.

Results

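The path of glucose from outside the cell to lactate was followed through 10 genes in primordial germ cells of the mouse, from which eggs and sperm descend. They were 2 glucose transporters (Slc2a1, Slc2a3), 2 hexokinases (Hk1, Hk2), phosphofructokinase (Pfkp), aldolase (Aldoa), phosphoglycerate kinase (Pgk1), pyruvate kinase (Pkm) and the 2 common subunits of lactate dehydrogenase (Ldha, Ldhb). Members were chosen by gene symbol, and each was read from the probe set with the highest mean over all arrays. They are 10 of 19937 genes with a probe set of a single symbol, and all 10 were among the 15180 genes that passed the filter on low values. All 10 passed on all 30 arrays.

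The 30 Affymetrix arrays formed 10 groups of 3. Control cells, labelled Ring1+;Rnf2+, were sampled from female and male gonads at E11.5, E12.5 and E13.5, the embryonic days on which germ cells of each sex take their own path. Cells labelled Ring1+;Rnf2delta, called Rnf2delta here, were sampled in females and males on the first 2 of these days. Rnf2 and Ring1 encode the paired E3 ligases of Polycomb repressive complex 1, which marks histone H2A and keeps developmental genes silent. Every group carried the Oct4(deltaPE)-GFP reporter on a mixed 129/Sv and C57BL6J background and an unaltered Ring1, as far as its label says. RNA of 500 sorted GFP-positive cells per sample was amplified by PCR before labelling. The sources used here do not give the Cre line or the deleted part of Rnf2. Nor do they state that a group's 3 arrays derive from different embryos or litters. The p-values therefore rest on a spread between samples that may be technical only. Genotype, stage and sex comparisons share control arrays.

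Glucose enters a cell through facilitative transporters and is trapped by hexokinase as glucose 6-phosphate. Phosphofructokinase takes the committed step, and aldolase, phosphoglycerate kinase and pyruvate kinase carry the sugar to pyruvate. Lactate dehydrogenase then interconverts pyruvate and lactate, with the Ldha subunit favouring lactate formation in most tissues and Ldhb the reverse. Germ cells of the fetal gonad are known to shift their balance of glycolysis and mitochondrial respiration as they differentiate, and many of these genes are textbook targets of the hypoxia-inducible factors and of Myc.

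RefSeq promoter windows (build GRCm38.p6, from 250 bases before to 50 after a transcript start) matched 9 of the 10 members; Slc2a3 had no entry. Ldha and Ldhb are shown because one subunit gene of the enzyme responded to genotype and its partner did not pass, and Slc2a1 and Pfkp because they had the largest stage differences. Capitals mark ACGTG and GCGTG on either strand, the core letters of the hypoxia response element. The letters CACGTG, an E-box, hold ACGTG on both strands and count as 2 matches.
Ldha, first window, chr7:46845554-46845853, plus strand: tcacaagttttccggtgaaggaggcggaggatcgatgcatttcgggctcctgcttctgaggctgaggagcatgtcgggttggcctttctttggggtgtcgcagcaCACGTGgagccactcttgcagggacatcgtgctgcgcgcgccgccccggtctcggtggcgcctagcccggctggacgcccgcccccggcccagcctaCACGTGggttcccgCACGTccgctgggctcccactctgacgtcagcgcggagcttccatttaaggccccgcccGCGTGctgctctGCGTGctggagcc
Ldha, second window, chr7:46846832-46847131, plus strand: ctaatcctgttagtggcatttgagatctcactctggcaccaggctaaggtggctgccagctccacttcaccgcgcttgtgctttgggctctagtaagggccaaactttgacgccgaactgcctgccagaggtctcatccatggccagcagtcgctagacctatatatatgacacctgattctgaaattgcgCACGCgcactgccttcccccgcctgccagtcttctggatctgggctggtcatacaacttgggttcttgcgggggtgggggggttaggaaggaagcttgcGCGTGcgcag
Ldhb, chr6:142507908-142508207, minus strand: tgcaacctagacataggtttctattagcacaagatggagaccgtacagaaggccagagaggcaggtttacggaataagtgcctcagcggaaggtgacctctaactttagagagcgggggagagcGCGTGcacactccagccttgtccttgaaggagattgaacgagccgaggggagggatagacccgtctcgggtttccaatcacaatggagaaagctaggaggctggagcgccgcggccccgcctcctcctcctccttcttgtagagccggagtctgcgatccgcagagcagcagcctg
Slc2a1, chr4:119108495-119108794, plus strand: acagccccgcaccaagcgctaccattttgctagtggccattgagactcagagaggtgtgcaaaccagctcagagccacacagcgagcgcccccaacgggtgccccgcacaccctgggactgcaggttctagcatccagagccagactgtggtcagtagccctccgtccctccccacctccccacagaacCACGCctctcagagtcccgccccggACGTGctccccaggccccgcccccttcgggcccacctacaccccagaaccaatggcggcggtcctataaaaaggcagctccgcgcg
Pfkp, chr13:6648722-6649021, minus strand: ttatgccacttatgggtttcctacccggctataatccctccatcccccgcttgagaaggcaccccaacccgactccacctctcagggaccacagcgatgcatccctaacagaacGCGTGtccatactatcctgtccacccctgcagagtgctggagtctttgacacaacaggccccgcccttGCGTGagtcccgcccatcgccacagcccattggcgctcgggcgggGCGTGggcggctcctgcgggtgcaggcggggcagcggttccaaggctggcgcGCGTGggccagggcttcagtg
The first Ldha window held 5 matches to ACGTG, of which 4 lie in 2 copies of CACGTG, and 2 matches to GCGTG. Of all 32851 windows of this length, 19.6% held at least 1 ACGTG, 32.4% at least 1 GCGTG and 7.15% at least 1 CACGTG on either strand. The share of windows with as many matches as this one was not counted. Among the members not shown, the Hk2 and Pgk1 windows and the second windows of Hk1 and Pkm held 2 matches to ACGTG each. The second Ldha window held 2 matches to GCGTG, and the Ldhb window held 1. The Slc2a1 window held 1 of each, and the Pfkp window held 4 matches to GCGTG. The first Ldha window also held 30 CG dinucleotides, against a median of 7 over all windows, and 11.7% of windows held as many. These matches describe letters and are no measure of binding.

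The arrays were uneven. The 6 E12.5 female arrays stood apart, with a mean correlation with their own group of 0.964 to 0.978 against 0.983 to 0.990 elsewhere (across genes, which are not independent replicates). The median within-group SD over genes was 0.238 in their controls and 0.207 in their Rnf2delta cells, against 0.140 to 0.175 in the other groups. The spread shared by all groups in the fit is on average smaller than that within E12.5 females, so calls there that array weights removed are named. The mean level over the 10 germ cell markers ranged from 6.99 to 7.67 on the log2 scale, with Pou5f1 between 8.45 and 9.71 and Prdm1, the lowest, between 4.46 and 5.59. The mean over a marker list ranged from 2.42 to 3.04 for supporting cells, 2.38 to 2.70 for interstitial and mesenchymal cells, 1.77 to 2.11 for steroidogenic cells, 2.03 to 2.40 for endothelial cells and 2.19 to 3.14 for macrophages. The erythroid list ranged from 1.95 to 4.40, with its highest array in Rnf2delta E12.5 males. Single markers reached above their list means, such as Wnt4 of supporting cells at 4.26 and Tyrobp of macrophages at 4.51. Array medians lay between 2.52 and 2.66. Rnf2 itself was lower in Rnf2delta by 0.61 at E11.5 and 0.63 at E12.5 in females and by 0.31 and 1.03 in males (SE 0.19 each). Both E12.5 differences passed the threshold (adjusted p = 0.029 and 0.0022) and the E11.5 differences did not (adjusted p = 0.2 and 0.8).

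For 3 members the probe set of highest mean did not stand among probe sets of the gene's own chromosome when the sets were ordered by their numbers. Of 9 neighbours of the chosen Hk1 set, 0 lay on chromosome 10, where Hk1 lies. Its annotation rests on 1 mRNA record that 17 probe sets share, 15 of them also listed under Rpl17, a ribosomal protein gene. Its level, 10.2 to 11.0, had no relation over the 30 arrays with that of the Hk1 set at the gene's own locus, 2.42 to 4.18 (r = -0.005). Hk1 is therefore described from its own-locus set, and the chosen set is counted where the rule counts it but not read as Hk1. The 2 sets of Pkm ran together (r = 0.98), as did those of Ldhb (r = 0.89), and own-locus values are given where they change a call. These correlations are descriptions over arrays that share their groups.

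**Figure D1:**
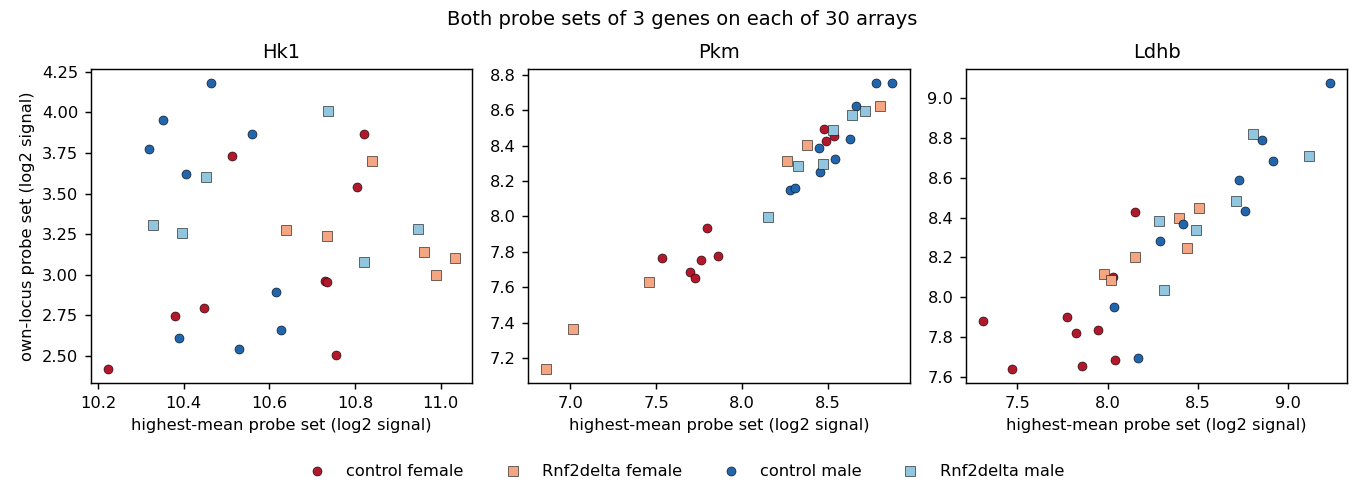
Log2 signal of the probe set with the highest mean (x axis) and of the probe set at the gene's own locus (y axis) for Hk1, Pkm and Ldhb; each point is 1 of 30 arrays, with colour for sex and genotype. Both sets of Pkm and of Ldhb rise together (r = 0.98 and 0.89), and those of Hk1 show no relation (r = -0.005).

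The first question was whether loss of Rnf2 changed these genes. Ldha, which encodes the subunit that favours lactate, was the member that rose in Rnf2delta cells of both sexes at both stages. Across the 4 comparisons its mean difference was 1.67 ± 0.13 (SE) on the log2 scale, a 3.18-fold higher signal (95% interval 1.41 to 1.93 on the log2 scale; limma, adjusted p = 2.1e-10). Pfkp was lower by a mean of 0.61 ± 0.18 (adjusted p = 0.027), and the other 8 members did not pass in that mean. Pkm was next at -0.23 ± 0.08 (adjusted p = 0.056), and it passed in 10 of 33 alternatives (0.0096 to 0.12). In all, 27 of 15180 genes, 0.178%, rose in all 4 comparisons and none fell in all 4, and Ldha was the single member among the 27. Members called in the mean of the 4 were 2 of 10, against 10.3% of all genes tested (8.14% higher, 2.17% lower).

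In E11.5 females the control arrays gave Ldha at 6.07, 7.01 and 5.93, and the Rnf2delta arrays at 7.76, 7.78 and 7.77. All Rnf2delta arrays were above all controls, and control replicate 2 stood nearest to them. The difference was 1.44 ± 0.25 (adjusted p = 0.0023), and Ldha was the 1 member called of 10, against 0.553% of all genes (0.540% higher). In E12.5 females Ldha was at 5.28, 4.97 and 5.46 in controls and at 6.67, 6.94 and 7.35 in Rnf2delta. The groups lay apart by more than their own spread. The difference of 1.75 ± 0.25 (adjusted p = 5e-05) kept its call with array weights (adjusted p = 0.0072; all alternatives gave 2.4e-05 to 0.021).

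In males the differences were of like size. At E11.5 Ldha was at 6.14, 5.77 and 5.07 in controls and at 7.85, 7.66 and 6.86 in Rnf2delta. The lowest Rnf2delta array was above the highest control, and both groups were broad (SD 0.54 and 0.52). The difference was 1.80 ± 0.25 (adjusted p = 0.00021), and Ldha was again the 1 member called, against 0.718% of all genes (0.679% higher). At E12.5 the control arrays were at 5.24, 5.43 and 5.18 and the Rnf2delta arrays at 6.96, 6.93 and 7.06. These were tight groups with a wide gap, and the difference was 1.70 ± 0.25 (adjusted p = 0.00034), with 1 of 10 members called against 0.962% of all genes (0.843% higher). Groups that lay apart in the same way, with Rnf2delta higher, were found for 9.71%, 11.9%, 8.74% and 8.64% of all genes in the E11.5 female, E12.5 female, E11.5 male and E12.5 male comparisons.

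Rnf2delta E12.5 male replicate 3 carried the embryonic globin Hbb-y at 9.71, where the other 2 arrays of its group were at 1.85 and 1.88. Without that array the Ldha difference at E12.5 in males was 1.66 (adjusted p = 0.0018; all alternatives gave 7e-05 to 0.0037). No marker of supporting, interstitial, steroidogenic, endothelial, erythroid or macrophage cells passed the threshold in any of the 4 genotype comparisons by limma. At an unadjusted p under 0.05 there were 4 in E12.5 females, 1 in E11.5 males, 3 in E12.5 males and 0 in E11.5 females, over 31 markers tested. For these marker counts the shares of all genes at that unadjusted p are not given. For Hbb-y the SD of 4.53 in Rnf2delta E12.5 males entered its shared spread, so its lack of a call decides nothing. Erythroid list means were lower in Rnf2delta without overlap in E11.5 females (2.08 to 2.18 against 2.30 to 2.48), E12.5 females and E11.5 males. So were endothelial means in females of both stages and steroidogenic means in E11.5 males, all below the array medians. No list mean lay wholly above its controls. Their part in the Ldha differences was not tested. In sorted bulk samples a different mix of germ cells and a different level per cell cannot be told apart.

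No difference in the genotype effect on Ldha between sexes or stages passed the threshold. The effect in females minus that in males was -0.36 at E11.5 (95% interval -1.10 to 0.37) and 0.05 at E12.5 (-0.68 to 0.79). The effect at E12.5 minus that at E11.5 was 0.31 in females (-0.42 to 1.05) and -0.10 in males (-0.83 to 0.63). No member passed in any of the 4 tests of such a difference, where 0.00%, 0.296%, 0.145% and 0.00% of all genes did. At an unadjusted p under 0.05 these tests gave 0, 3, 1 and 0 members. The shares of all genes at that unadjusted p are not given, so these counts cannot be set against a general rate. Slc2a1 had the smallest of these adjusted p-values, with an effect 0.83 ± 0.25 lower in females than in males at E12.5 (adjusted p = 0.13), and it passed without control E12.5 female replicate 2 (adjusted p = 0.019; all alternatives gave 0.019 to 0.47).

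**Figure D2:**
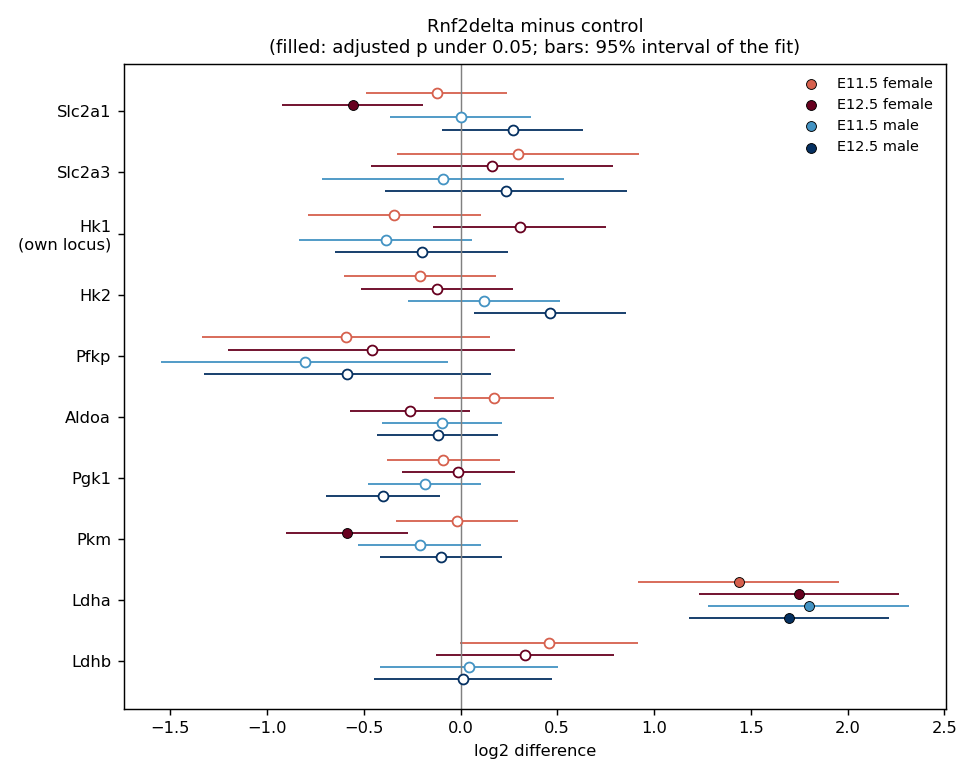
Log2 difference of Rnf2delta minus control (x axis) for the 10 genes (y axis) in the 4 stage and sex groups, as fitted by limma; bars are 95% intervals, and filled points passed the threshold. Hk1 is shown from its own-locus probe set. The 4 Ldha points lie between 1.44 and 1.80, and intervals that exclude 0 are also seen for Pkm and Slc2a1 in E12.5 females, Pfkp in E11.5 males, and Hk2 and Pgk1 in E12.5 males.

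Ldhb, the partner subunit, was not called in any genotype comparison. Its difference was 0.46 ± 0.22 in E11.5 females (95% interval -0.003 to 0.918) and 0.33 ± 0.22 in E12.5 females (-0.13 to 0.79). With the chosen set all Rnf2delta arrays were above all controls in both, as for 9.71% and 11.9% of all genes. With the own-locus set the E12.5 females lay apart and the E11.5 females overlapped. Their own-locus levels were 7.68, 7.90 and 8.43 in E11.5 controls and 8.45, 8.25 and 8.40 in Rnf2delta. In males the difference with the chosen set was 0.04 at E11.5 (-0.42 to 0.50) and 0.01 at E12.5 (-0.45 to 0.47). All 4 intervals end below the Ldha point estimates of 1.44 to 1.80, a comparison of differences within each gene and not of levels. In E11.5 females the Ldha interval, 0.918 to 1.955, begins where that of Ldhb ends. The genotype effect on Ldha was not tested against that on Ldhb. Ldhc, the germ cell subunit best known from spermatocytes, has its gene next to Ldha on chromosome 7. It was called higher in Rnf2delta at E12.5 in both sexes. Ldhc was at 3.19, 2.70 and 3.14 in E12.5 female controls and at 3.25, 4.0 and 3.72 in Rnf2delta, and at 3.42, 3.26 and 3.33 against 4.25, 4.19 and 3.70 in E12.5 males. No Rnf2delta array of either sex fell within its controls, though replicate 1 of the females stood close to the highest control. The differences were 0.64 ± 0.17 (adjusted p = 0.016; 0.069 with array weights) and 0.71 ± 0.17 (adjusted p = 0.035). At E11.5 Ldhc did not pass by limma. It differed there by 0.01 in females (95% interval -0.34 to 0.37) and by 0.49 in males (0.14 to 0.84, adjusted p = 0.27). All E11.5 male Rnf2delta arrays (3.86 to 4.05) were above their controls (3.44 to 3.54).

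Pfkp, the platelet-type phosphofructokinase, had lower means in Rnf2delta in all 4 comparisons without passing in any. The differences were -0.59 and -0.46 in E11.5 and E12.5 females and -0.81 and -0.59 in E11.5 and E12.5 males (SE 0.36 each; adjusted p = 0.89, 0.46, 0.57 and 0.77). At E11.5 in males the controls were at 6.90, 7.01 and 7.13 and the Rnf2delta arrays at 6.50, 6.2 and 5.93. The groups were apart there, as they were in E11.5 females and E12.5 males, where 6.83%, 4.54% and 5.99% of all genes lay apart in that direction. The 2 E12.5 female groups were very broad (SD 1.04 and 1.03) and set the common spread of the fit for this gene. With the E12.5 female arrays left out, Pfkp was called in E11.5 males (adjusted p = 0.021; all alternatives gave 0.021 to 1), as it was in E12.5 females without control replicate 1 (adjusted p = 0.044; all alternatives gave 0.044 to 0.94). The mean over the 4 comparisons lost its call when only the 8 groups compared were fitted (adjusted p = 0.051; all alternatives gave 0.00088 to 0.057), and without Rnf2delta E11.5 male replicate 3, control E11.5 female replicate 2, control E12.5 male replicate 2, Rnf2delta E12.5 male replicate 3 or control E12.5 female replicate 3.

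In E12.5 females Slc2a1 and Pkm also passed, which made 3 of 10 members called against 9.89% of all genes (7.73% higher, 2.16% lower). Slc2a1, the main basal glucose transporter of embryonic cells, was at 6.41, 5.85 and 6.72 in controls and at 5.84, 5.85 and 5.62 in Rnf2delta. Control replicate 2 equalled the highest Rnf2delta array at 2 decimals. The difference was -0.56 ± 0.18 (adjusted p = 0.044; 0.33 with array weights; all alternatives gave 0.0034 to 0.38). Pkm, pyruvate kinase, was at 7.53, 7.76 and 7.79 against 6.86, 7.46 and 7.02, a difference of -0.59 ± 0.15 (adjusted p = 0.015; 0.21 with array weights; all alternatives gave 0.0027 to 0.29). Both calls were also lost without control replicate 3 or Rnf2delta replicate 1 of that group, and Slc2a1 also without control replicate 1 or Rnf2delta replicate 2 or 3. Groups lay apart with Rnf2delta lower for 5.81% of all genes there. Of the 10 germ cell markers, 4 were lower in the same comparison: Pou5f1 by 0.65, Dppa3 by 0.56, Dnd1 by 0.69 and Prdm1 by 0.50, none of them past the threshold with array weights (adjusted p = 0.12, 0.16, 0.35 and 0.25). Their part in the Slc2a1 and Pkm differences was not tested.

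The hexokinases, Slc2a3, Aldoa and Pgk1 were not called in any genotype comparison as fitted. Pgk1, at -0.17 ± 0.07 in the mean of the 4 (adjusted p = 0.14), passed there with quantile normalization and with centring (adjusted p = 0.050, under the threshold before rounding, and 0.023; all alternatives gave 0.023 to 0.28). Own-locus Hk1 differed by -0.34, 0.30, -0.39 and -0.20 in the E11.5 female, E12.5 female, E11.5 male and E12.5 male comparisons (SE 0.22 each). Hk2, the inducible hexokinase, differed by -0.21, -0.12, 0.12 and 0.46 (SE 0.19). Slc2a3, a high-affinity transporter, differed by 0.30, 0.16, -0.09 and 0.23 (SE 0.31). Their intervals reached at most 0.92 from 0 and do not show that the genotypes were alike, and that of Hk2 in E12.5 males (0.07 to 0.85) excluded 0 without passing after adjustment. Aldoa lay between -0.26 and 0.17 (SE 0.15), and Pgk1, an X-linked gene, between -0.40 and -0.01 (SE 0.14).

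Beyond the 10 members, other genes of the pathway were counted in lists. In the mean of the 4 genotype comparisons 8.14% of all genes were higher and 2.17% lower. Each count of that mean is to be read against these shares. Of 18 tested genes among other glycolysis enzymes and transporters, 2 rose in the mean of the 4 genotype comparisons and none fell: Ldhc by 0.47 ± 0.09 (adjusted p = 4e-04) and Pfkm, the muscle-type phosphofructokinase, by 0.39 ± 0.10 (adjusted p = 0.013). Their median was 0.05, and that of all genes 0.01. Of 14 regulators, Egln1, an oxygen-sensing prolyl hydroxylase, rose by 0.35 and Tigar, a fructose bisphosphatase that slows glycolysis, fell by 0.33. Of 15 genes of lactate and pyruvate handling, Mpc1, a subunit of the mitochondrial pyruvate carrier, fell by 0.81 ± 0.17 (adjusted p = 0.0014) and Dld, a subunit of pyruvate dehydrogenase, rose by 0.32.

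The pentose phosphate pathway, which draws on glucose 6-phosphate to make NADPH and ribose, had 4 of 8 tested genes higher and none lower in that mean, against 8.14% higher and 2.17% lower over all genes, with a median of 0.23. They were the transketolase-like gene Tktl1 at 0.89 ± 0.15 (adjusted p = 0.00014), phosphogluconate dehydrogenase Pgd at 0.61 ± 0.11 (adjusted p = 0.00028), H6pd at 0.34 and Rpia at 0.31. Tktl1 was at 2.67, 2.81 and 2.78 in E12.5 female controls and at 5.72, 4.82 and 3.71 in Rnf2delta. All 3 Rnf2delta arrays were above the controls, with a spread (SD 1.01) far wider than that of the controls (0.08). Tktl1 was also apart in E12.5 males, at 2.89, 3.06 and 2.67 in controls and 3.98, 3.89 and 3.52 in Rnf2delta. The genotypes overlapped at E11.5, with control and Rnf2delta means of 2.78 and 2.88 in females and 2.89 and 3.41 in males. Its mean over the 4 comparisons thus rests mainly on E12.5. Control means of Tktl1 in these comparisons, 2.75 to 2.89, lay close to the array medians. Of 12 tested genes of gluconeogenesis and glycogen, 4 rose and none fell, against the same shares of all genes, led by Pygl, glycogen phosphorylase, at 0.70, and G6pc3, a glucose 6-phosphatase, at 0.51. The list's median there was -0.01.

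Of 14 tested hypoxia-inducible genes outside glycolysis, P4ha2, a collagen prolyl hydroxylase subunit, rose in all 4 genotype comparisons and Ero1a fell in their mean by 0.36. P4ha2 was at 2.58, 3.21 and 3.04 in E11.5 female controls and at 4.01, 3.81 and 4.03 in Rnf2delta. The groups were apart there, and the 4 differences were 1.0, 1.26, 0.95 and 1.03 (SE 0.21 each; adjusted p = 0.016, 0.00024, 0.017 and 0.0074). The median of this list was 0.05, so the list as a whole lay close to all genes.

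The second question was how the genes moved with stage in control cells. From E11.5 to E13.5, a comparison that uses none of the E12.5 arrays and was added after the data had been seen, 6 of 10 members fell in females and none rose, against 26.3% of all genes called (1829 of 15180 lower). Transport, the hexokinase and phosphofructokinase steps, Pgk1 and Pkm were lower, while Aldoa, Ldha and Ldhb were not called. In males 2 of 10 fell, Slc2a3 and Pfkp, against 11.0% of all genes (5.64% lower). The own-locus sets added Hk1 in females, and Hk1 and Pkm in males. The median difference over the members was -0.72 in females and -0.32 in males, and over all genes -8e-04 and -0.01.

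Pfkp had the widest range of group means of the 10 members, 3.01 on the log2 scale. In females it was at 7.07, 7.19 and 6.46 at E11.5 and at 4.33, 3.90 and 4.06 at E13.5. In males it was at 6.90, 7.01 and 7.13 at E11.5 and at 4.0, 4.06 and 3.96 at E13.5. Every E13.5 array was over 2 log2 units below every E11.5 array of its sex. The falls were -2.81 ± 0.36 in females (7.02-fold; adjusted p = 1.2e-06) and -3.01 ± 0.36 in males (8.06-fold; adjusted p = 1.9e-06). At E12.5 Pfkp was at 4.16, 5.72 and 6.14 in control females and at 6.22, 6.36 and 5.90 in control males. Male cells were tightly grouped and still high at E12.5, and the E12.5 to E13.5 step of -2.15 ± 0.36 passed (adjusted p = 0.0012). Female cells were spread over nearly 2 units at E12.5, with replicate 1 inside the range of the E13.5 arrays.

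Slc2a3 fell in both sexes and Slc2a1 in females. Slc2a3 was at 6.56, 6.64 and 6.11 in E11.5 females and at 4.83, 5.11 and 5.26 in E13.5 females, a difference of -1.37 ± 0.31 (adjusted p = 0.0011). In males it was at 6.54, 6.04 and 5.93 and then at 4.75, 5.10 and 4.87, a difference of -1.26 ± 0.31 (adjusted p = 0.0066), which was lost without control E11.5 male replicate 1 (adjusted p = 0.051; all alternatives gave 0.00055 to 0.051). The E13.5 arrays lay below all E11.5 arrays in both sexes. The difference between sexes in this change was -0.11 (95% interval -1.0 to 0.77).

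Slc2a1 parted by sex. In females it went from 7.21, 7.34 and 7.07 at E11.5 through 6.41, 5.85 and 6.72 at E12.5 to 5.37, 5.64 and 5.11 at E13.5. In males it was at 7.23, 6.86 and 7.02, then 6.81, 6.86 and 6.43, then 6.97, 7.22 and 7.21. Each female stage lay wholly below the one before it, while the E13.5 males overlapped the E11.5 males. The change from E11.5 to E13.5 was -1.83 ± 0.18 in females (adjusted p = 1.5e-08) and 0.10 ± 0.18 in males (95% interval -0.27 to 0.46). The difference between these changes, -1.93 ± 0.25, passed (adjusted p = 2.7e-05), against 5.28% of all genes called in that test (2.33% lower), and Slc2a1 was the 1 member of 10. All 22 alternatives kept this call.

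Pgk1 and Pkm fell in females from E11.5 to E13.5 by -0.69 ± 0.14 and -0.74 ± 0.15 (adjusted p = 5e-04 and 0.00056). Pgk1 was at 8.20, 8.63 and 8.22 in E11.5 females and 7.67, 7.55 and 7.75 at E13.5, and at 8.08, 7.83 and 7.80 and then 7.52, 7.73 and 7.62 in males. The female levels started above all male arrays at E11.5 and overlapped them at E13.5. The change in males was -0.28 ± 0.14 for Pgk1 and -0.37 ± 0.15 for Pkm, neither of which passed (adjusted p = 0.24 and 0.13), and the difference between sexes did not pass for either (adjusted p = 0.28 and 0.4). Hk2 fell in females by 0.82 ± 0.19 (adjusted p = 0.0017) and differed by -0.44 in males (adjusted p = 0.15), at levels of 2.67 to 4.26. Own-locus Hk1 fell by 1.06 in females and 1.31 in males (SE 0.22 each; adjusted p = 5e-04 and 0.00015).

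Aldoa had the narrowest range of group means, 0.34, and passed in none of the comparisons as fitted. Centring on the median of tested genes called it lower at E13.5 than E12.5 in females (adjusted p = 0.022; all alternatives gave 0.022 to 0.37). Its lowest array was at 8.66 and its highest at 9.46. Ldhb differed by -0.23 in females and 0.22 in males from E11.5 to E13.5 (SE 0.22 each), and neither passed. Ldha differed by -0.54 ± 0.25 in males (adjusted p = 0.19) and passed without control E11.5 male replicate 3 (0.046; all alternatives gave 0.046 to 0.61).

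**Figure D3:**
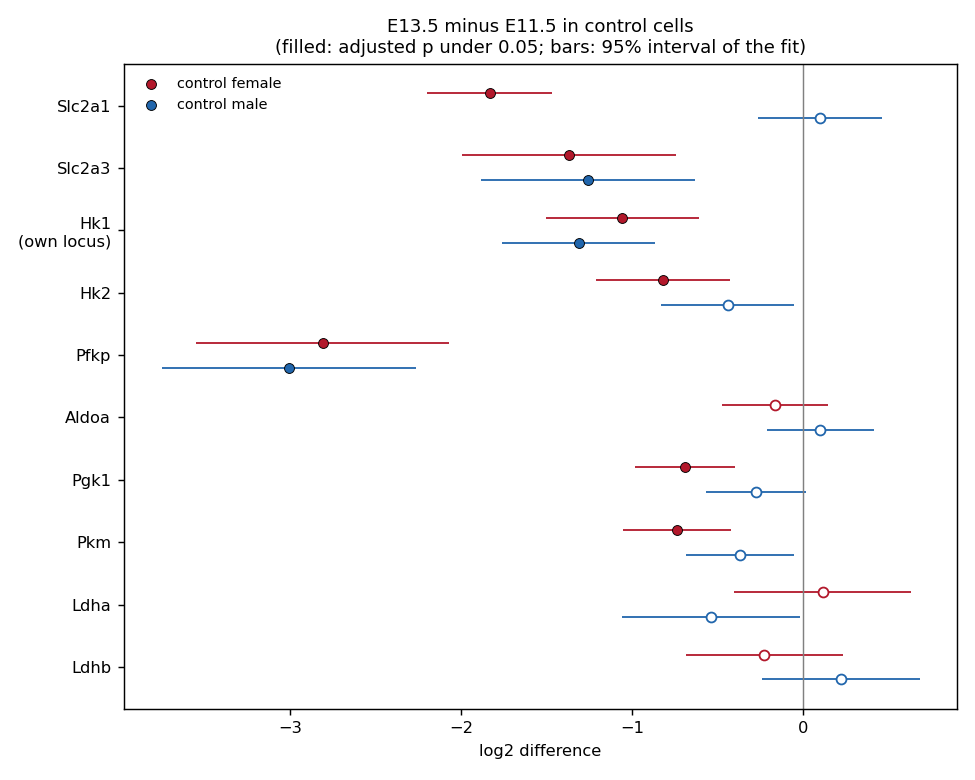
Log2 difference of E13.5 minus E11.5 in control cells (x axis) for the 10 genes (y axis), females in red and males in blue, as fitted by limma; bars are 95% intervals, and filled points passed the threshold. Hk1 is shown from its own-locus probe set. Pfkp fell most in both sexes (-2.81 and -3.01), and Slc2a1 fell in females (-1.83) but not in males (0.10).

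The step from E11.5 to E12.5 in control females held 4 calls of 10, all lower, against 18.8% of all genes (14.2% lower): Pfkp by -1.57, Ldha by -1.10, Slc2a1 by -0.88 and Pkm by -0.81. Pfkp lost its call when only the 2 groups compared were fitted (adjusted p = 0.055; all alternatives gave 4e-04 to 0.055). Hk2 passed without control E11.5 female replicate 3 (0.038; 0.038 to 0.26), and Slc2a3 without control E12.5 female replicate 3 (0.019; 0.019 to 0.47). In Rnf2delta females the same step held 5 of 10, all lower, against 18.6% (11.7% lower): Pfkp by -1.43, Pkm by -1.37, Slc2a1 by -1.31, Slc2a3 by -0.90 and Ldha by -0.79. The last 2 and Pfkp were lost without Rnf2delta E12.5 female replicate 1, and Slc2a3 and Ldha were also lost without any 1 of the 3 E11.5 arrays and with array weights (adjusted p = 0.077 and 0.057; all alternatives gave 0.011 to 0.16 and 0.015 to 0.15). Slc2a3 was lost without Rnf2delta E12.5 female replicate 3 as well, and Ldha without replicate 2. In males this step held 0 of 10 in controls, against 2.62%, and 0 of 10 in Rnf2delta, against 0.547%, by limma, with 2 and 0 members at an unadjusted p under 0.05. Pfkp, at -0.86 ± 0.36, was called in control males with array weights, with only the 2 groups compared and without the E12.5 female arrays (adjusted p = 0.028, 0.0093 and 0.0068; all alternatives gave 0.0068 to 0.5). Slc2a3, at -0.82 ± 0.31, was called with only the 2 groups compared (adjusted p = 0.029; all alternatives gave 0.029 to 0.45). The difference between female and male controls over this step was called for no member, against 3.34% of all genes, with 3 members at an unadjusted p under 0.05. For this unadjusted count, as for those in males, the share of all genes is not given.

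From E12.5 to E13.5 control females held 4 calls, against 21.8% of all genes (17.0% higher, 4.81% lower), and control males held 1, Pfkp, against 1.10% (0.343% lower). In females Ldha rose by 1.21 ± 0.25 (adjusted p = 0.00089), Slc2a1 fell by 0.95 ± 0.18 (adjusted p = 0.00027), Pfkp fell by 1.25 ± 0.36 (adjusted p = 0.013) and Pgk1 fell by 0.43 ± 0.14 (adjusted p = 0.029). The last pair lost their calls without control E12.5 female replicate 2 or 3 or control E13.5 female replicate 2, and Pgk1 also without control E13.5 female replicate 1 and with array weights (adjusted p = 0.097; all alternatives gave 0.0028 to 0.12). Slc2a3 passed without control E12.5 female replicate 1 (0.017; 0.017 to 0.56). Ldha in control females thus went from 6.07, 7.01 and 5.93 through 5.28, 4.97 and 5.46 to 6.29, 6.54 and 6.52. The middle stage lay below both others, and E11.5 and E13.5 overlapped (0.11 ± 0.25; 95% interval -0.41 to 0.63). Both steps share the E12.5 control females, the group with the widest spread. In the difference between sexes over this step 2 of 10 members passed, against 6.45% of all genes (5.07% higher, 1.38% lower): Slc2a1 at -1.39 ± 0.25 (adjusted p = 0.0011) and Ldha at 1.38 ± 0.36 (adjusted p = 0.02). Ldha lost this call with quantile normalization and without control E12.5 male replicate 2, control E13.5 male replicate 2 or control E13.5 female replicate 2 (all alternatives gave 0.0058 to 0.059).

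Markers of macrophages moved with stage in these samples. Their mean level was 2.64 to 3.14 in E11.5 controls and 2.19 to 2.43 in E13.5 controls, and Tyrobp fell by 1.25 in females and 1.5 in males while the other 4 tested markers did not pass. Of other markers, Amh, of supporting cells, rose by 0.96 and Tek, of endothelium, fell by 0.61 in males, and Alas2, of erythroid cells, fell by 0.48 in females. Of the 10 germ cell markers, 2 rose and 4 fell in females and 3 rose and 3 fell in males over these 2 days. From E11.5 to E12.5 in control females Cx3cr1 and Tyrobp, of macrophages, fell by 1.11 and 0.89 and Tek by 0.57, and 3 germ cell markers rose and 1 fell. Esam, of endothelium, fell by 0.45 and 2 germ cell markers rose and 3 fell in Rnf2delta females over that step. In control and Rnf2delta males Tyrobp fell by 1.32 and 1.28, and 2 germ cell markers rose in the controls. From E12.5 to E13.5, 5 germ cell markers fell in females and 1 in males. Between the sexes at E13.5, 2 germ cell markers were higher and 3 lower in females, and Amh was lower by 0.82. These marker counts are to be read against the shares of all genes given for the same comparisons. The part of the markers in the stage and sex differences was not tested.

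The third question was how the sexes differed in control cells. At E11.5 no member passed by limma, against 0.250% of all genes. At an unadjusted p under 0.05 there were 3 members, a count for which the share of all genes is not given. At E12.5 females were lower than males for 2 of 10, Ldhb and Pkm, against 19.1% of all genes (14.7% lower). Own-locus Hk1 was also lower there (-0.71 ± 0.22, adjusted p = 0.022). Without control E12.5 female replicate 3 Slc2a1 and Pfkp passed too (adjusted p = 0.028 and 0.021; all alternatives gave 0.028 to 0.65 and 0.021 to 0.71), as did Hk2 without control E12.5 male replicate 3 (0.034; 0.034 to 0.54). At E13.5 females were lower for Slc2a1, Ldhb and Pkm and higher for Ldha, 4 of 10 against 16.3% (7.91% higher, 8.37% lower).

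The largest of these was Slc2a1 at E13.5, at 5.37, 5.64 and 5.11 in females and 6.97, 7.22 and 7.21 in males. The groups lay more than 1 log2 unit apart. The difference was -1.76 ± 0.18 (3.39-fold; adjusted p = 4.7e-08). Ldha went the other way, at 6.29, 6.54 and 6.52 in E13.5 females and 5.05, 4.91 and 5.40 in males, 1.33 ± 0.25 higher in females (adjusted p = 0.00039). At E12.5 the 2 sexes overlapped for Ldha, with a difference of -0.05 (95% interval -0.56 to 0.47).

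Ldhb at E12.5 was at 7.47, 7.86 and 7.82 in females and 8.73, 9.23 and 8.42 in males, with no overlap. The difference was -1.07 ± 0.22 (adjusted p = 0.00099) and -0.97 with the own-locus set. At E13.5 it was -0.85 ± 0.22 (adjusted p = 0.0082) with the chosen set but -0.33 ± 0.22 (adjusted p = 0.37; all alternatives gave 0.0028 to 0.37) with the own-locus set, so this call depends on the probe set. It was also lost with the mean of the probe sets and without control E13.5 male replicate 2 or control E13.5 female replicate 2. Pkm was lower in females by 0.79 ± 0.15 at E12.5 (adjusted p = 0.00052) and 0.65 ± 0.15 at E13.5 (adjusted p = 0.0036). Its own-locus set gave -0.48 and -0.56, both past the threshold.

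**Figure D4:**
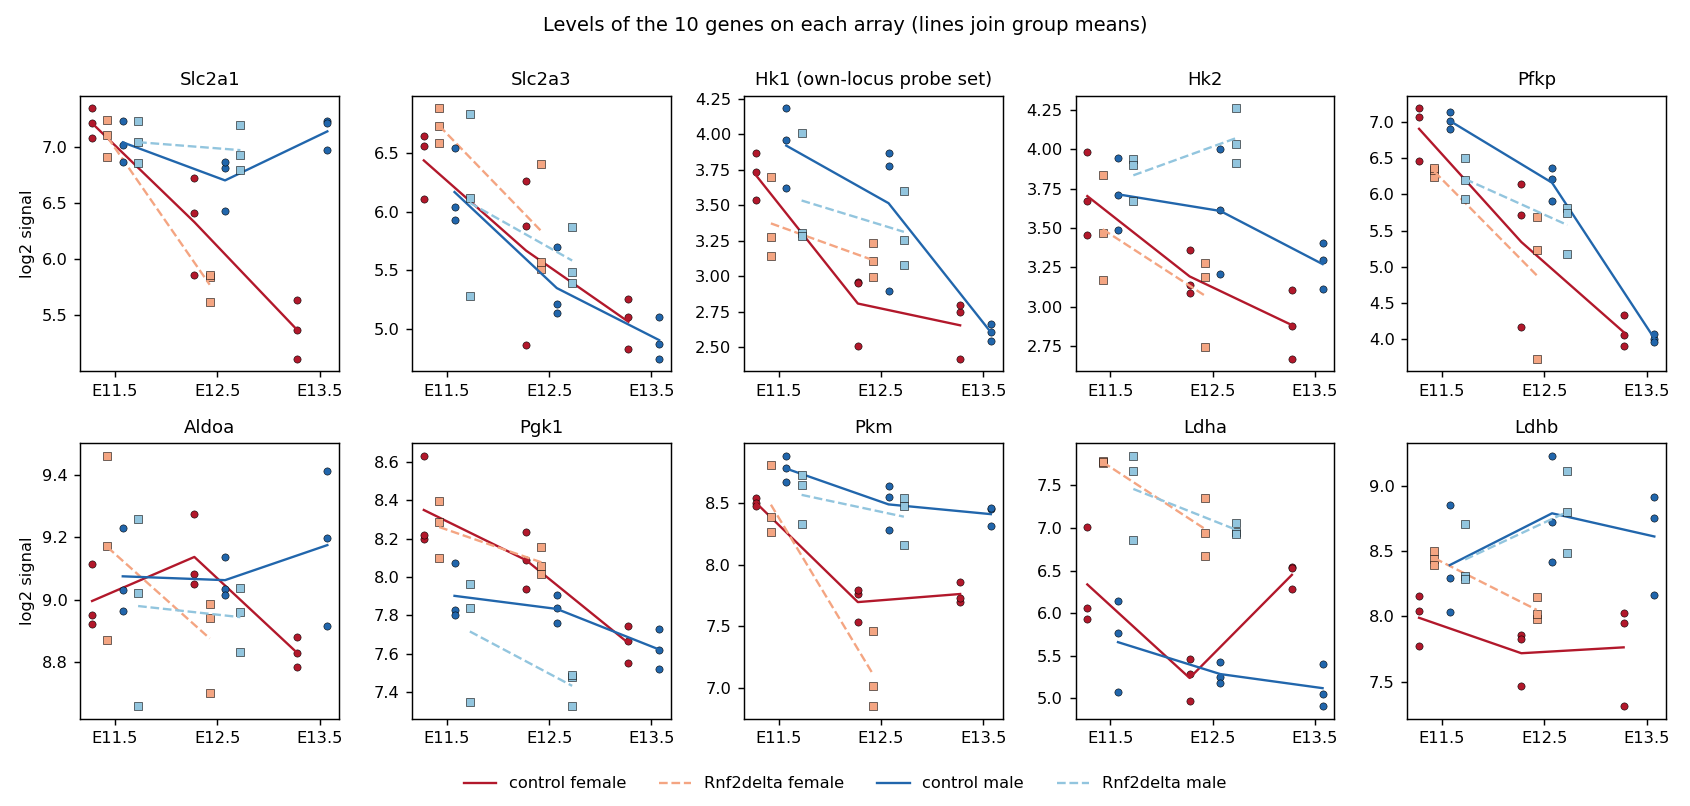
Log2 signal (y axis, own range for each gene) of the 10 genes at each stage (x axis) on all 30 arrays; points are arrays, circles controls and squares Rnf2delta, and lines join the group means, with Hk1 from its own-locus probe set. Ldha shows Rnf2delta above control at both stages, and Slc2a1 shows female and male controls parting by E13.5 (means 5.37 and 7.14).

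Over the 10 groups the order of the means differed between members. For Ldha the 4 Rnf2delta groups were highest, with means of 6.98 to 7.77, followed by E13.5 control females at 6.45 and the other controls down to 5.12 in E13.5 control males. Only between the lowest Rnf2delta group and E13.5 control females did neighbours in this order not overlap, 1 of 9 pairs. For Slc2a1 the order ran from E11.5 control females at 7.21 to E13.5 control females at 5.37, and no neighbouring pair lay clearly apart: the nearest arrays of E12.5 control and Rnf2delta females were equal at 2 decimals. Pfkp ran from 7.02 in E11.5 control males to 4.01 in E13.5 control males, with 2 of 9 pairs apart. Slc2a3 ran from 6.73 in E11.5 Rnf2delta females to 4.91 in E13.5 control males, with no neighbouring pair apart.

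Among tested genes, those whose 10 group means ran most like these 4 were named by Pearson's r, as a description over groups that share arrays. For Ldha they were Igfbp2 (r = 0.97), Meis1 (0.96) and Galnt10 (0.96). For Pfkp they were Lgals9 (0.97), Kcna10 (0.97) and Amt (0.96), and for Slc2a3 Apoc1 (0.98), Dnm1 (0.97) and Tubb2b (0.97). For Slc2a1 they were Ppp2r1a (0.98), Serp1 (0.98) and Sf3a2 (0.97). A high r here does not mean a change of like size. Group means ranged over 0.46 for Meis1 and 0.48 for Galnt10, against 2.65 for Ldha, and over 0.38 for Kcna10, against 3.01 for Pfkp. The other genes named by r had ranges of 0.90 (Ppp2r1a) to 2.62 (Igfbp2). Among the members themselves the highest r was 0.84, between Slc2a1 and Pkm, and the next 0.80, between Slc2a3 and Pfkp.

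Other genes of the pathway also moved with stage. From E11.5 to E13.5 in control females, 5 of 18 other glycolysis genes fell and 2 rose, with a median of -0.08. Over all genes 26.3% were called in females and 11.0% in males, and each count of this comparison is to be read against these shares. Pfkl, the liver-type phosphofructokinase, fell by 0.85, Pgam1 by 0.71 and Tpi1 by 0.68, and Aldoc, another aldolase, rose by 1.03 (SE 0.19 to 0.23). In males 1 of 18 fell, Pfkl by 0.76. Of 14 hypoxia-inducible genes 5 fell and 2 rose in females, and 3 fell and 1 rose in males. Vegfa, the vascular growth factor, fell by 1.17 and 1.08, and Egln3, a prolyl hydroxylase, fell by 1.44 and 0.83 in females and males. Of 15 genes of lactate and pyruvate handling, 3 rose and 3 fell in females: Pdp1, a pyruvate dehydrogenase phosphatase, rose by 1.41, and Mpc1 fell by 1.09. In males Mpc1 fell by 1.56 and Pdp1 rose by 0.70.

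The pentose phosphate list had 3 genes that rose and 1 that fell in females over the same days, and 1 and 2 in males. Pgd rose by 1.26 in females and 0.89 in males. Tkt, transketolase, fell by 0.44 in females and 1.17 in males, a difference between sexes of 0.73 ± 0.19 (adjusted p = 0.024). Between the sexes at E13.5, Pfkfb2 was 1.15 higher and Pfkfb3 1.03 lower in females, 2 isozymes of the enzyme that makes and removes the activator of phosphofructokinase (adjusted p = 1.4e-05 each). Pdk1 was 0.87 lower and Pdk3 0.82 higher in females, 2 kinases that restrain pyruvate dehydrogenase. Slc2a12, another glucose transporter, was 1.12 higher in females and Gys1, glycogen synthase, was 1.12 lower.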

How the data were processed

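The authors deposited log2 signals for 34760 probe sets on 30 arrays, on a normalized scale. The submitters' processing notes name R 2.15 and affy 1.36; the background correction, summary method and build were not given in the sources used here. Symbols were updated through the RefSeq table (GRCm38.p6). A gene was tested if at least 3 arrays exceeded their own array's 40th percentile. All arrays entered 1 fit with limma 3.58.1 in R 4.3.3, with 1 mean per group, which gave 18 planned comparisons and 5 chosen after seeing the data (E13.5 minus E11.5 in controls, and stage changes between sexes), two-sided, adjusted by Benjamini-Hochberg over 15180 genes (threshold 0.05). Scripts were tested on simulated data. Named are all members, up to 4 called genes of each list with the largest change plus partners of a member, the 3 genes most like each of the 4 members with the widest range, and Rnf2. The members and lists were chosen with earlier results of these data known. Alternatives were array weights, replicate block, trend, no filter, mean of probe sets, quantile normalization, fewer groups, arrays left out, and, chosen after seeing the data, own-locus sets and centring. With 3 arrays per group, array number sets the precision.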

Additional observations from a re-analysis of the deposited data

Results flagged for a closer look

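In 3 results the change with stage differed between the sexes, by a test of that difference in control cells. From E11.5 to E13.5 Slc2a1 changed by -1.93 more in females than in males (adjusted p = 2.7e-05). From E12.5 to E13.5 the difference was -1.39 for Slc2a1 (adjusted p = 0.0011) and 1.38 for Ldha (adjusted p = 0.02). The Slc2a1 results share the E13.5 arrays, and the 2 results over the later step share the E12.5 and E13.5 arrays.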

How the results depend on the processing

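Of 230 member differences, 39 passed the threshold and 27 of these passed in each alternative run for them. The 6 sign changes with a call were all of Hk1: own-locus sets gave -0.91 for E12.5 minus E11.5 in control females, -0.91 for E13.5 minus E12.5 and -1.31 for E13.5 minus E11.5 in control males, and -0.71 for females minus males at E12.5, and the mean of probe sets gave -0.44 for E12.5 minus E11.5 in control females and -0.60 for E13.5 minus E11.5 in control males. Counts of members called were within 1.5 times for 12 of 23 comparisons. With array weights they were 1 for genotype in E12.5 females, 3 for the Rnf2delta female stage step and 1 for E12.5 minus E11.5 in control males. With only the groups compared they were 1 for genotype in E12.5 females, 2 in E11.5 males and 1 in the mean of 4, and 2 for E13.5 minus E12.5 in control females and 2 for E12.5 minus E11.5 in control males. Without the 6 E12.5 female arrays they were 2 for genotype in E11.5 males and 1 for E12.5 minus E11.5 in control males. Quantile normalization and centring gave 4 each for the mean of 4; centring gave 3 for the Rnf2delta female step, and quantile normalization gave 1 for the E13.5 minus E12.5 difference between sexes. Own-locus sets gave 2 for E13.5 minus E12.5 and 4 for E13.5 minus E11.5 in control males. Leaving out 1 array gave 1 to 3 for genotype in E12.5 females and for the mean of 4, 0 to 1 for the E12.5 sex difference in genotype effect, 2 to 5 for E13.5 minus E12.5 in control females, 2 to 4 for the Rnf2delta female step, 2 to 4 for females minus males at E12.5, 1 to 3 for E13.5 minus E11.5 in control males and 1 to 2 for the E13.5 minus E12.5 difference between sexes. The replicate block lost no member call and added 1, Pkm in the mean of 4 (3 members called). Deviations from group means of same-numbered arrays of different groups correlated between -0.16 and 0.30 (mean 0.005). For 12 of 30 arrays the mean of these correlations was higher with their own number than with either other number. The labels do not say whether same-numbered samples share a litter, day or batch, and these correlations cannot decide it. Hk2 and own-locus Hk1, with means of 3.48 and 3.25, were nearest to the array medians, which lay between 2.52 and 2.66, and signal over background was not measured. The cause of these changes was not tested, beyond the fewer arrays or groups that some alternatives hold.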

Other observations

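The genes on both sides of Ldha on chromosome 7 were read as well, chosen after the Ldha values were seen. In the mean of the 4 genotype comparisons, Gtf2h1, next before Ldha, differed by -0.03 ± 0.08, Hps5 by -0.06 ± 0.07 and Saa2 by -0.17 ± 0.11. On the other side Ldhc rose by 0.47 ± 0.09 (adjusted p = 4e-04), Tsg101 differed by 0.17 ± 0.08 (adjusted p = 0.21), Uevld by -0.01 ± 0.10 and Spty2d1 by 0.03 ± 0.07. Of the 7 tested neighbours, Ldhc was the 1 that passed.

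Hbb-y, an embryonic globin, reached 9.71 on Rnf2delta E12.5 male replicate 3 and was at 1.85 and 1.88 on the other 2 arrays of that group.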
